A study of Mus musculus with 6 samples.

Results

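Hb9 ganglion cells were compared with the general Thy1-positive cells of the mouse retina on 4 of the 6 arrays of the series, 2 titled Hb9 RGCs and 2 titled Thy1 RGCs. The arrays were taken by their titles, and no measured value entered the choice. All mice were C57BL/6 at postnatal day 6. The Hb9 group holds retinal cells positive for both GFP and Thy1 from a mouse line named for Hb9, and the Thy1 group holds cells stained with an antibody to Thy1, a surface glycoprotein carried by retinal ganglion cells (RGCs) in general. The remaining 2 arrays, of double-positive cells from the Drd4 line, entered the model and are given beside some results. The replicates of each group stem from separate litters. Papain was used to dissociate the retinas, and the RNA of the flow-sorted cells was amplified in 2 rounds for Affymetrix arrays. The labels name the line but not its construct, and they do not say which mice the Thy1 sort came from.

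RGCs are the output neurons of the retina, and they fall into many types that differ in the visual feature they report. ON-OFF direction-selective ganglion cells answer bright and dark edges that move one way, and their tuning arises from inhibition by starburst amacrine cells, which release both GABA and acetylcholine. The Hb9 line is known to label the direction-selective type that prefers upward motion, and the Drd4 line one that prefers nasal motion. In the first postnatal week these cells have reached their brain targets and are still choosing synaptic partners, so neuropeptides, transmitter receptors, adhesion proteins and guidance cues are the families by which such types are usually told apart.

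Intensities are on a log2 scale, with 1 probe set per gene for 18193 genes. A gene is called here when its limma p, adjusted by Benjamini-Hochberg over all genes, is under 0.05. Differences are Hb9 minus Thy1 with the standard error (SE) of the limma model, n = 2 arrays in each group, and a call "held with every array left out" when it passed in each of the 4 fits that left out 1 Hb9 or Thy1 array. The bacterial reference is the highest of 27 Bacillus subtilis control probe sets on each array, at 5.38 and 5.25 in Hb9 and 5.16 and 5.12 in Thy1. Between 68.2% and 74.9% of genes lay above it on these 4 arrays. Median intensity ranged from 45.5 to 47.7, and across genes, which are not independent replicates, replicate arrays correlated at 0.993 in Hb9 and 0.990 in Thy1. A control for the 5′ part of 18S ribosomal RNA read 1125 and 1071 in Hb9 and 2866 and 2772 in Thy1, whereas its 3′ part read 1003 and 903.3 against 732.4 and 864.6. The ratio of 3′ to 5′ signal of the Gapdh control was 4.65 and 5.04 in Hb9 and 4.10 and 3.99 in Thy1, without overlap, and that of the actin control was 4.02 and 4.81 against 5.06 and 4.64, with overlap. The part of these differences in the results was not tested.

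The 6 markers of the Hb9 cells are described first. They were chosen with earlier results of these data known, so their differences cannot test the Hb9 label. Cartpt, which encodes the CART neuropeptide, read 9.27 and 9.40 on the Hb9 arrays and 7.40 and 7.29 on the Thy1 arrays. Npy, the precursor of neuropeptide Y, read 9.11 and 8.31 against 5.96 and 5.76. Zic2, a zinc finger transcription factor that directs ipsilateral axon choice at the chiasm, read 8.45 and 8.08 against 5.58 and 6.02. All 3 were higher on both Hb9 arrays than on either Thy1 array. Cdh1, which encodes the homophilic adhesion protein E-cadherin, stood at 8.02 and 7.53 against 5.36 and 5.17, close to the bacterial reference in Thy1. Cbln4, a secreted synaptic organiser, stood at 9.20 and 9.86 against 7.39 and 7.01. Crabp2, which carries retinoic acid to its nuclear receptor, stood at 7.76 and 7.95 against 5.56 and 6.33. The 6 log2 differences were 1.99 ± 0.27 for Cartpt, 2.85 ± 0.23 for Npy, 2.47 ± 0.20 for Zic2, 2.51 ± 0.19 for Cdh1, 2.33 ± 0.38 for Cbln4 and 1.91 ± 0.28 for Crabp2. Their adjusted p ranged from 0.000323 to 0.00743, and each of these calls held with every array left out. Each of the 6 genes has 1 probe set.

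The gene behind the name of the line was not above background. Mnx1, which encodes Hb9, read 4.13 and 3.76 in Hb9 and 4.18 and 3.73 in Thy1, at or below the bacterial reference on all 4 arrays (limma adjusted p = 0.987). Thy1 itself was bright on all 4 arrays, at 11.66 and 11.50 in Hb9 and 11.24 in both Thy1 arrays, and its difference of 0.34 ± 0.10 did not pass (limma adjusted p = 0.0826). Of 18 ganglion cell genes measured, 1 rose and 1 fell, 5.56% each, against 3.52% and 3.19% of all genes. Their summed intensity was 40830 and 40570 in Hb9 and 38610 and 37890 in Thy1. Rbpms, a pan-RGC RNA-binding protein gene, read 10.37 and 10.38 in Hb9 and 10.35 and 10.57 in Thy1.

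The regulatory sequence next to Cartpt, Npy and Cbln4 is shown because these genes encode secreted products that were higher together. RefSeq promoter windows (build GRCm38.p6) were found for 4 of 7 genes looked up, namely Cartpt, Npy, Cbln4 and Zic5; Zic2, Cdh1 and Crabp2 were the others. The 250 bases before the start of each gene are printed 5′ to 3′ on the strand of the gene. Capitals mark TGACG or its reverse complement CGTCA, the overlapping parts of TGACGTCA, the cyclic AMP response element, and both strands were searched. The Cartpt window lies at chr13:99900684-99900933 on the minus strand, the Npy window at chr6:49822460-49822709 on the plus strand, and the Cbln4 window at chr2:172043467-172043716 on the minus strand.
Cartpt: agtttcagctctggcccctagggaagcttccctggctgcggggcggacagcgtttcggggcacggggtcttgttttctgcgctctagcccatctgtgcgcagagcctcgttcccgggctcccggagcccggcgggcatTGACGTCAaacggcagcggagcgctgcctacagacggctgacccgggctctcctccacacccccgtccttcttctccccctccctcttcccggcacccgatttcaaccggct
Npy: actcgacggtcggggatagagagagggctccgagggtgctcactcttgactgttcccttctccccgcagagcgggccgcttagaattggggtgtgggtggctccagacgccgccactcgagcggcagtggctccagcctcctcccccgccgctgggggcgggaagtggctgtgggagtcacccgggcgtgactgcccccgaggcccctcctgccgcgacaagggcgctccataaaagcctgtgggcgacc
Cbln4: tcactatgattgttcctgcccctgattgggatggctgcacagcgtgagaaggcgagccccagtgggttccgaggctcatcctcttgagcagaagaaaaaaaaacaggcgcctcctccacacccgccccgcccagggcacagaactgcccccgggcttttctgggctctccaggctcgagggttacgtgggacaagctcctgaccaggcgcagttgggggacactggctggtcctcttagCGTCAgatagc
The Cartpt window holds the full palindrome, starting 112 bases before the start, in which both 5-base matches overlap. The Cbln4 window holds CGTCA 11 bases before the start. In the Npy window, and in that of Zic5, which is not printed, these letters do not occur. Over 27025 windows, 1 per gene symbol, 1.62% held TGACGTCA and 17.9% held either 5-base form. A match describes the sequence only.

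Across all genes, 640 were higher in Hb9, 3.52% of those tested, and 580 were lower, 3.19%. The median difference over all genes was 0.04. At least 2-fold differences were seen in 106 genes called higher and in 297 called lower. Single arrays weighed heavily on these counts. Without Hb9 replicate 1, Hb9 replicate 2, Thy1 replicate 1 or Thy1 replicate 2, the genes called higher numbered 96, 141, 121 and 766, and those called lower 219, 300, 259 and 509. In all 4 of these fits, 61 genes were called higher and 166 lower.

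Also among the 14 largest rises were Myh1, Eya1, Zic5, Crhbp, Fibcd1 and Cfap69. Myh1, a fast myosin heavy chain gene best known from skeletal muscle, read 7.38 and 6.72 in Hb9 and 4.13 and 3.93 in Thy1, below the reference there, so it was at least 3.77-fold higher. Of its 3 probe sets, 2 were called higher. Eya1, a cofactor and phosphatase of the retinal determination network, read 7.47 and 6.84 against 5.30 and 5.08 (1.97 ± 0.23), with 1 of 3 probe sets called. On the Thy1 arrays Eya1 thus lay around the reference, not clearly above it. Zic5, which in the RefSeq table is the nearest protein-coding neighbour of Zic2 on chromosome 14, read 6.83 and 5.85 against 4.67 and 4.54, at least 2.30-fold higher. Both Zic genes were therefore higher, Zic5 from a level below the reference and Zic2 from one above it. Crhbp, a secreted protein that binds corticotropin-releasing hormone, read 9.52 and 9.75 against 8.07 and 7.59 (1.81 ± 0.19, adjusted p = 0.000981 in limma). Fibcd1, a receptor for acetylated sugars, read 6.28 and 5.59 against 4.15 and 4.0 and was at least 1.74-fold higher. Cfap69, a cilia and flagella protein gene, read 7.05 and 7.04 against 5.28 and 5.23 (1.79 ± 0.15), with 1 of 3 probe sets called. These 6 genes were chosen among called genes without overlap of the groups, so their separation is no separate result. Each call held with every array left out.

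**Figure D1:**
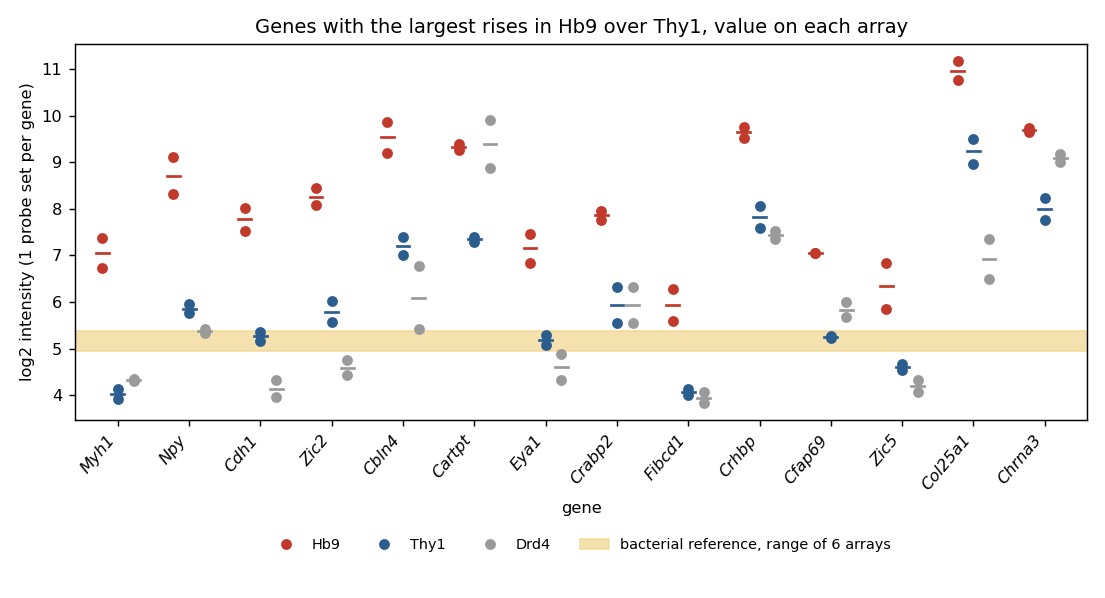
Log2 intensity on each array (points) with the group mean (short lines) for the 14 genes with the largest rises outside the lists for microglia, vessel cells, cell division and immediate-early genes, ordered by the rise; Hb9 in red, Thy1 in blue and Drd4 in grey, 2 arrays each. The band spans the bacterial reference over the 6 arrays. The 14 genes were chosen so that both Hb9 points lie above both Thy1 points. The Drd4 points of Cartpt and Chrna3 lie near those of Hb9.

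The 20 signalling lists hold 998 genes, of which 63 were higher (6.31%, against 3.52% of all genes) and 57 lower (5.71%, against 3.19%), with a median difference of -0.01. Without Hb9 replicate 1, Hb9 replicate 2, Thy1 replicate 1 or Thy1 replicate 2 the higher genes numbered 20, 26, 21 and 50 and the lower genes 27, 29, 29 and 48. Of the 57 lower genes, 47 are not in the lists for microglia, vessel cells, cell division or immediate-early genes.

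Among 39 precursors of neuropeptides and hormones, 3 rose (7.69%, against 3.52% of all genes) and 2 fell (5.13%, against 3.19%). Beside Npy and Cartpt, the third rise was Scg2, which encodes secretogranin II, a protein of dense-core vesicles. Scg2 read 10.34 and 10.22 in Hb9 and 9.15 on both Thy1 arrays, a difference of 1.13 ± 0.14 that held with every array left out. Crh, the precursor of corticotropin-releasing hormone, fell: it read 2.97 and 3.75 in Hb9, below the reference, against 6.06 and 5.60 in Thy1, so it was at least 1.43-fold lower. Crhbp and Crh thus moved in opposite directions, and both were chosen among genes without overlap of the groups. Stc1, which encodes the hormone stanniocalcin, differed by -1.01 ± 0.17, a call lost without Hb9 replicate 2 (adjusted p = 0.0599 in limma) and when its probe sets were averaged (0.0701).

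Secreted growth factors and cytokines gave several calls that rested on single arrays. Tgfb2, a TGF-beta ligand, read 7.43 and 7.72 against 6.47 and 6.37 (1.15 ± 0.22), and all 4 of its probe sets were called higher. It did not pass without Hb9 replicate 2 (limma adjusted p = 0.0825) and without Thy1 replicate 1 (0.0645). Vegfc, a ligand of vascular growth factor receptors, read 6.52 and 6.39 against 5.17 and 5.49 (1.13 ± 0.18) and was lost without Hb9 replicate 1 (0.0549), without Thy1 replicate 1 (0.0647) and with probe sets averaged (0.0591). Its Hb9 values lay close together and its Thy1 values near the reference. Clcf1, a cytokine of the CNTF family, read 6.24 and 6.16 against 5.09 and 5.49 (0.91 ± 0.16) and was lost without the same arrays (0.0705 and 0.0846) and with probe sets averaged (0.0761). Igfbp5, an IGF-binding protein that is also on the vessel list, read 9.74 and 9.42 against 8.53 and 8.39 (1.12 ± 0.16) and was lost without Hb9 replicate 1 (0.0511). With its probe sets averaged, Igfbp5 differed by 0.38 and did not pass (limma adjusted p = 0.109). In each of these 4 genes both Hb9 arrays lay above both Thy1 arrays, as in 33.2% of all genes. They were named among called genes, so this separation is no separate result.

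On the receptor side, Lifr, the receptor subunit through which LIF and CNTF family cytokines signal, read 8.20 and 8.57 in Hb9 against 7.29 and 7.17 in Thy1 (1.15 ± 0.18). Its call held with every array left out but did not pass when its 3 probe sets were averaged (limma adjusted p = 0.168). Osmr, which pairs with the same signalling subunit, fell below the reference: it read 4.45 and 4.27 against 5.33 and 5.45 and was at least 1.05-fold lower, though it did not pass with probe sets averaged (0.0735). In all, 3 of 45 neurotrophin and cytokine genes rose and 3 fell, 6.67% each, against 3.52% and 3.19% of all genes. Of the receptor tyrosine kinase list 7.14% was higher. The receptor tyrosine kinase list had 4 higher genes and 0 lower of 56, namely Vegfc, Fgfr2, Alk and Pdgfa, with 0, 1, 1 and 2 higher when Hb9 replicate 1, Hb9 replicate 2, Thy1 replicate 1 or Thy1 replicate 2 was left out. Alk, whose ligands are the ALKAL cytokines, read 7.95 and 7.80 against 7.07 and 6.98 (0.85 ± 0.15), and it was brighter still in the Drd4 line, at 9.12 and 9.04. Alk did not pass without Hb9 replicate 1 (limma adjusted p = 0.108) or Hb9 replicate 2 (0.0507).

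The TGF-beta and BMP list had 1 higher (1.85%) and 6 lower (11.1%) of 54 genes, against 3.52% and 3.19% of all genes. Its median difference was -0.04. Fstl1, a secreted antagonist of BMP ligands, read 8.56 and 8.43 in Hb9 against 10.34 and 10.02 in Thy1 (-1.68 ± 0.19), with both of its probe sets called. Tgfbr2, the ligand-binding TGF-beta receptor, read 6.29 and 6.11 against 8.07 and 7.39 (-1.53 ± 0.25) and was lost without Thy1 replicate 1 (adjusted p = 0.0579 in limma) and with probe sets averaged (0.0634). Bmp5, a BMP ligand on the vessel list, fell by 1.24 ± 0.19. With the 4 arrays left out in the order used above, the lower genes numbered 3, 3, 3 and 5.

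Of 43 Notch and Hedgehog genes 10 were called lower (23.3%, against 3.19% of all genes), 1 higher and 32 in neither direction, with a median of -0.09. Of the lower genes, 6 are outside the lists for microglia, vessel cells, cell division and immediate-early genes; Jag1, a Notch ligand, Notch3 and the Notch target Hey2 are on the vessel list. Notch2 read 6.34 and 7.65 against 9.37 and 8.81 (-2.10 ± 0.44), and it did not pass without Hb9 replicate 1 (limma adjusted p = 0.129) and without Thy1 replicate 1 (0.162), nor with probe sets averaged (0.0638) or under robust moderation (0.119). Notch3 read 6.11 and 6.34 against 8.33 and 8.25 (-2.06 ± 0.16). Rbpj, the nuclear partner of cleaved Notch, was the gene called higher (0.72 ± 0.19), a call lost without Hb9 replicate 1, Hb9 replicate 2 and Thy1 replicate 1, and with probe sets averaged (0.431). With the arrays left out in turn the lower genes numbered 5, 5, 4 and 9. Wnt genes gave 3 higher (4.76%, against 3.52% of all genes) and 0 lower of 63, and with the arrays left out in turn 0, 1, 2 and 2 were higher. Among them, Wif1, a secreted Wnt inhibitor, was at or below the reference on all 4 arrays, so its direction has no measured level behind it.

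The lists for intracellular signalling gave calls of differing stability. Cabp1, a neuronal calcium sensor related to calmodulin, read 5.61 and 5.60 in Hb9 and 4.51 and 4.67 in Thy1, at least 1.38-fold higher. Pde7b, a cyclic AMP phosphodiesterase, read 5.49 and 5.63 against 6.61 and 6.93 (-1.20 ± 0.16). Dock1 and Dock10, which switch on Rac and Cdc42, fell by 1.64 ± 0.25 and 1.22 ± 0.17. These 3 falls and the rise of Cabp1 held with every array left out. Rasgrf2, a calcium-activated Ras exchange factor, read 9.89 and 9.81 against 8.85 and 8.99 (0.93 ± 0.14), and its relative Rasgrf1 differed by 0.81 ± 0.18 with all 3 of its probe sets called. Rasgrf2 did not pass without Hb9 replicate 1 (limma adjusted p = 0.0626), and with its probe sets averaged it differed by 0.32 (0.133). Rasgrf1 passed in none of the 4 fits with an array left out (limma adjusted p = 0.205, 0.0736, 0.0667 and 0.0908), nor under quantile normalisation (0.0567). Of 57 MAP kinase pathway genes 4 were higher (7.02%, against 3.52% of all genes) and 1 lower (1.75%, against 3.19%). Of 50 G protein and RGS genes 4 were higher (8.0%) and 1 lower (2.0%). With the arrays left out in turn the higher counts were 0, 1, 1 and 3, then 1, 0, 0 and 1.

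Retinoid and nuclear receptor genes split evenly, with 3 higher and 3 lower of 45, 6.67% each, against 3.52% and 3.19% of all genes. Beside Crabp2, Nr2f6, an orphan nuclear receptor, read 7.03 and 7.24 against 6.12 and 6.09 (1.02 ± 0.15). Dhrs3, which turns retinaldehyde back into retinol and so limits retinoic acid, read 5.06 and 5.28 in Hb9, near the reference, against 6.50 and 6.10 in Thy1 (-1.13 ± 0.17). Rorb, a nuclear receptor used in retinal development, read 7.82 and 8.03 against 9.0 and 9.09 (-1.12 ± 0.15), and its call was lost with the mean of its 3 probe sets (adjusted p = 0.32 in limma). Crabp1, the other cellular retinoic acid binding protein, read 7.25 and 6.04 against 5.14 and 5.35 (1.40 ± 0.30). Its Hb9 arrays lay far apart, and the call was lost without Hb9 replicate 1, Thy1 replicate 1 or Thy1 replicate 2. The Crabp1 call was also lost under robust moderation (adjusted p = 0.0552 in limma).

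Ionotropic transmitter receptors had 9 higher (20.5%) and 3 lower (6.82%) of 44 genes, against 3.52% and 3.19% of all genes. The list median was -0.08, below the median of all genes. Chrna3, a nicotinic acetylcholine receptor subunit, read 9.72 and 9.64 against 7.76 and 8.23 (1.69 ± 0.18), with 2 of 3 probe sets called. Chrnb4, encoded in the same gene cluster, read 6.66 and 7.09 against 5.70 and 5.63 (1.21 ± 0.17). The products of both genes join in one nicotinic receptor form of autonomic and central neurons. Grik1, a kainate receptor subunit also used as a marker of OFF bipolar cells, read 7.70 and 8.10 against 6.29 and 6.62 (1.45 ± 0.19). Gabra5, a GABA-A receptor subunit found largely outside synapses, read 7.74 and 7.68 against 6.47 and 6.35 (1.30 ± 0.16). These 4 were named for their large called differences, so their separation of the groups on every array is no separate result. Both Hb9 arrays lay above both Thy1 arrays in 33.2% of all genes. The 4 calls held with every array left out, but not all of the 9 rises did. Chrna6, another nicotinic subunit and a ganglion cell gene, went the other way at 7.94 and 8.0 against 8.82 and 8.99 (-0.93 ± 0.15), and was lost without Hb9 replicate 1 (adjusted p = 0.07 in limma). Left out in turn, the arrays gave 7, 6, 6 and 9 higher genes.

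Channel lists gave fewer calls than the ionotropic receptor list. Of 51 sodium, calcium, TRP and chloride channel genes 4 were higher (7.84%, against 3.52% of all genes). None of these rises held with every array left out. One of them, Ano3, was at or below the reference on all 4 arrays, so its direction has no measured level behind it. In the same list 3 were lower (5.88%, against 3.19%). Of 50 potassium and HCN channel genes 2 were called higher, Kcnt2 and Kcna1, and 0 lower, a share of 4.0% beside 3.52% of all genes. Kcna1, a delayed rectifier, passed in none of the 4 fits with an array left out (limma adjusted p = 0.121, 0.175, 0.0817 and 0.138), nor with probe sets averaged (0.253) or under quantile normalisation (0.0879). Kcnt2, a sodium-activated potassium channel, was at least 1.58-fold higher but lost without Hb9 replicate 1 (adjusted p = 0.0513 in limma) and without Thy1 replicate 1 (0.0570). Ano1, a calcium-activated chloride channel, read 5.65 and 6.03 in Hb9 against 7.70 and 7.55 in Thy1 (-1.78 ± 0.21) and held with every array left out. Ly6e, a GPI-anchored relative of the Lynx modulators of nicotinic receptors that is also on the microglia and vessel lists, read 6.74 and 6.76 against 5.73 and 5.60 (1.09 ± 0.15).

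**Figure D2:**
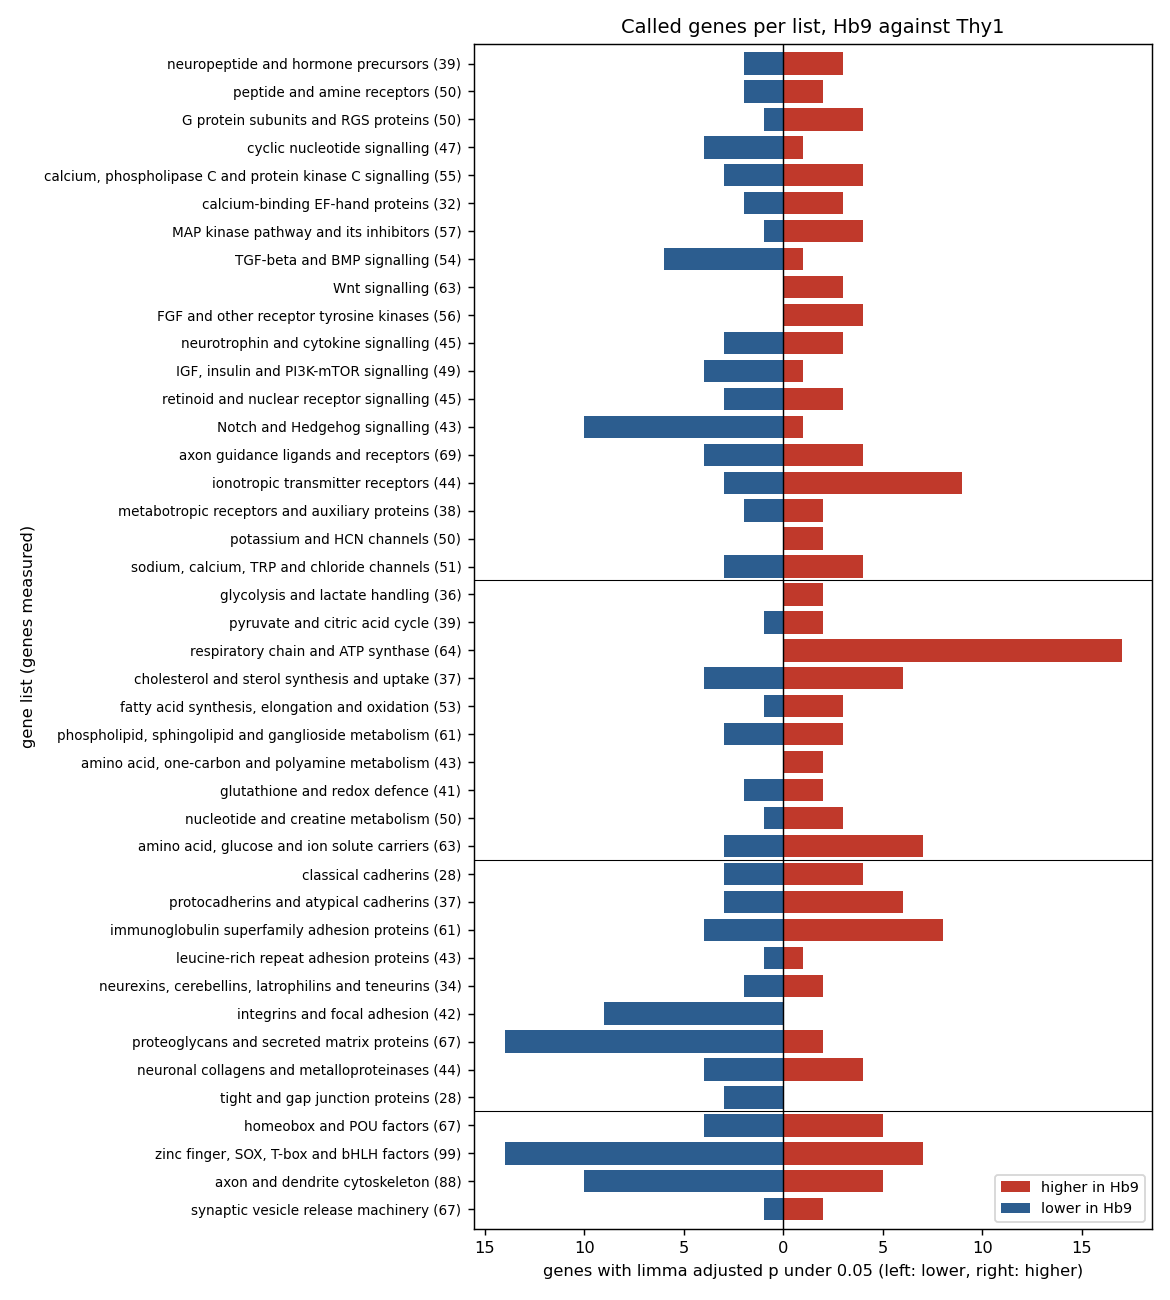
Number of genes called higher (red, to the right) and lower (blue, to the left) in Hb9 against Thy1 in 42 of the 43 lists for these families, with the genes measured in brackets; lines part signalling, metabolism, adhesion and other gene families. The longest bar to the right is the respiratory chain list with 17 genes, and the longest bars to the left are those of matrix proteins and of zinc finger and related factors, with 14 each.

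Axon guidance genes were called 4 higher and 4 lower of 69, 5.80% each, against 3.52% and 3.19% of all genes. Among the higher genes, Epha3 was at or below the reference on all 4 arrays. Nell2, a secreted guidance cue that binds Robo3, showed the second largest fall among the genes named by size, at 6.32 and 6.11 in Hb9 and 8.71 and 9.38 in Thy1 (-2.83 ± 0.24, adjusted p = 0.000425 in limma), with 1 of 2 probe sets called. Sema5a, a transmembrane semaphorin that repels axons and dendrites in the retina, read 4.81 and 5.05 in Hb9, below the reference, against 6.93 and 6.47, so it was at least 2.60-fold lower. Unc5d, a netrin and FLRT receptor, read 5.88 and 6.08 against 7.55 and 7.47 (-1.53 ± 0.15). Sema3e, a secreted semaphorin that signals through plexin D1, rose, at 10.35 and 10.47 against 9.12 and 9.31 (1.19 ± 0.14). These 4 calls held with every array left out, although the Sema3e call was lost with the mean of its 4 probe sets (0.0748).

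The 10 metabolic lists hold 486 genes, of which 47 were higher (9.67%, against 3.52% of all genes) and 15 lower (3.09%, against 3.19%), with a median difference of 0.12 beside 0.04 for all genes. Of the 47 higher genes 17 belong to the respiratory chain list, and 30 of the other 422 genes were higher (7.11%). The metabolic rises were the least stable of the 4 classes: without Hb9 replicate 1, Hb9 replicate 2, Thy1 replicate 1 or Thy1 replicate 2 the higher genes numbered 2, 7, 4 and 38, and under quantile normalisation 27. The lower genes numbered 6, 12, 6 and 18 with the same arrays left out. Of the higher metabolic genes 2 held with every array left out, Cds1 and Slc7a3.

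Respiratory chain and ATP synthase genes made up the largest group of rises. Of 64 genes measured, 17 were called higher (26.6%) and 0 lower, and the list median was 0.33. Of these genes 51 read higher on both Hb9 arrays than on both Thy1 arrays (79.7%, where 33.2% of all genes did so and 3.52% were called higher). The summed intensity of the list was 120000 and 113500 in Hb9 and 89230 and 96050 in Thy1. Complex I held 12 of the called genes among 33 measured (median 0.44), complex IV 2 of 9 (0.26), the ATP synthase 2 of 12 (0.25), and complex III with cytochrome c 1 of 10 (0.13). Ndufb7, a complex I subunit, read 10.61 and 10.51 in Hb9 against 9.28 and 9.88 in Thy1 (0.98 ± 0.21). Cox7c, a small subunit of cytochrome oxidase, read 7.18 and 6.88 against 5.99 and 6.01 (1.04 ± 0.18). Both were named among called genes, so their separation of the groups on every array is no separate result. The calls depended on single arrays, with 0, 1, 1 and 10 genes called when Hb9 replicate 1, Hb9 replicate 2, Thy1 replicate 1 or Thy1 replicate 2 was left out, and on scaling, with 8 called under quantile normalisation. The list median remained above 0 under quantile normalisation (0.26) and median centring (0.38). The 18S and Gapdh controls given above moved with the same groups, and their part here was not tested.

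Of 37 sterol genes 6 were higher (16.2%, against 3.52% of all genes) and 4 lower (10.8%, against 3.19%), with a median of 0.30. Among the higher genes Cyp51, a synthesis enzyme that removes a methyl group from lanosterol, read 8.77 and 8.66 against 7.53 and 7.75 (1.07 ± 0.18), and the synthesis enzyme genes Msmo1, Fdft1 and Lss differed by 1.06 ± 0.26, 1.04 ± 0.25 and 1.0 ± 0.24. With probe sets averaged, these 3 did not pass (limma adjusted p = 0.106, 0.0929 and 0.666). The other rises, named after their values were seen, were Tm7sf2, also a synthesis enzyme (0.82), and Cyp46a1, which turns cholesterol into its brain export form (0.84). Among the lower genes Abca1, the cholesterol efflux pump, read 5.57 and 6.25 against 9.39 and 8.19 (-2.88 ± 0.57), and Apoe, a secreted lipid carrier on the microglia and Muller glia lists, read 5.96 and 5.67 against 8.85 and 7.91 (-2.56 ± 0.41). Abcg1 and Npc2 differed by -0.96 ± 0.21 and -0.91 ± 0.17. With the arrays left out in turn the higher genes numbered 0, 2, 0 and 7 and the lower genes 1, 2, 0 and 4, and under quantile normalisation 3 were higher. Abca1 did not pass without Hb9 replicate 1 (limma adjusted p = 0.102) and without Thy1 replicate 1 (0.137), and Apoe did not without Thy1 replicate 1 (0.0517). Under robust moderation neither passed (0.148 for Abca1 and 0.059 for Apoe). Microglia also express Apoe and Abca1; microglial genes are given below, and their part in these falls was not tested.

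**Figure D3:**
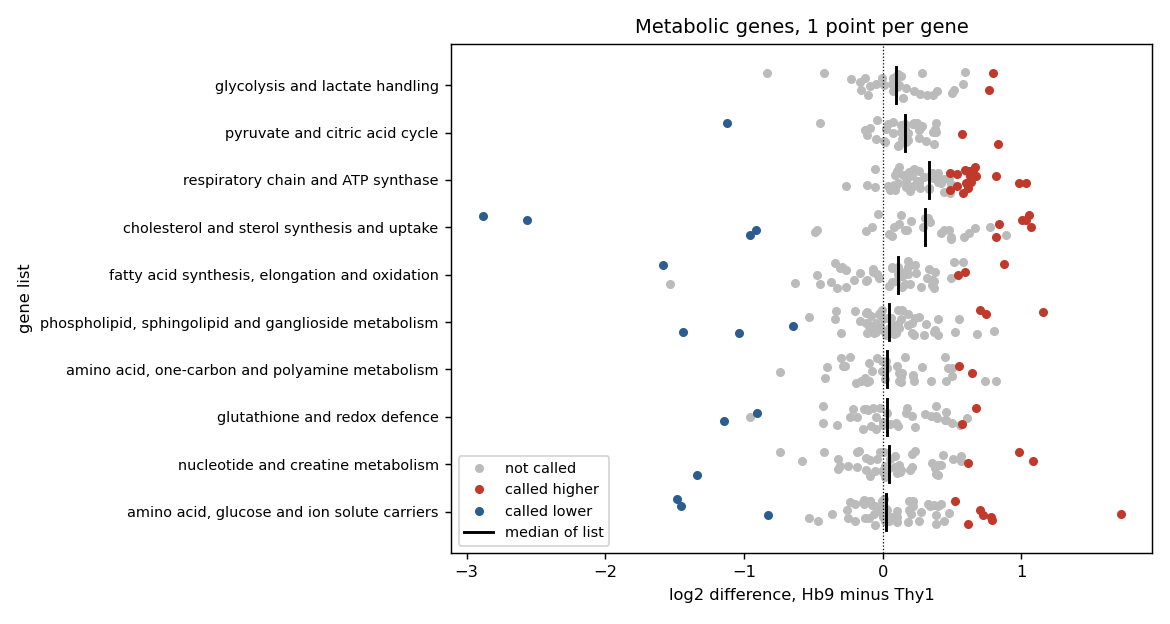
Log2 difference, Hb9 minus Thy1, of each gene in the 10 metabolic lists, 1 point per gene and spread vertically for display; red and blue points were called higher and lower, grey points were not called, and black bars are list medians. The respiratory chain list is shifted to the right with its median at 0.33, and the sterol list holds both the largest falls, Abca1 and Apoe, and 6 rises.

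Other pathways of energy metabolism gave few calls. In glycolysis and lactate handling 2 of 36 genes were higher (5.56%, against 3.52% of all genes). They were Tkt (0.79 ± 0.19) and Pfkp (0.77 ± 0.17), but Pfkp also had 1 of 3 probe sets called lower. In the pyruvate and citric acid list Dld and Dlat, subunits of pyruvate dehydrogenase, differed by 0.83 ± 0.20 and 0.57 ± 0.14, and Pdk4, the kinase that blocks this enzyme, fell by 1.12 ± 0.19 but was above the reference on 1 Thy1 array only. With Hb9 replicate 1, Hb9 replicate 2 or Thy1 replicate 1 left out, 0 genes of either list were called higher, and without Hb9 replicate 2 there were 2 lower glycolysis genes. Hadh, which acts in the mitochondrial oxidation of fatty acids, read 8.06 and 8.14 in Hb9 against 9.81 and 9.56 in Thy1 (-1.59 ± 0.25) and held with every array left out.

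Lipid, amino acid and redox genes added single members. Slc7a3, a transporter of arginine and lysine, read 7.48 and 7.54 against 5.84 and 5.75 (1.72 ± 0.14, adjusted p = 0.000323 in limma); it is 1 of 3 genes of the other-cell lists called higher. Cds1, which makes the CDP-diacylglycerol needed for phosphoinositides, read 6.83 and 7.19 against 5.87 and 5.82 (1.16 ± 0.16). Both genes were named among called genes, so the gap between their Hb9 and Thy1 arrays is no separate result. Slc12a2, the chloride importer that sets how GABA acts in young neurons, read 9.22 and 9.15 against 10.74 and 10.54 (-1.45 ± 0.17), with all 3 probe sets called. Ak5, a neuronal adenylate kinase, read 8.39 and 8.35 against 7.35 and 7.42 (0.98 ± 0.15) and was lost without Hb9 replicate 1 (0.0505). Msrb3 and Gpx8, which repair or clear oxidised molecules, were at or below the reference in Hb9 and at least 1.23-fold and 1.25-fold lower. Apart from Ak5, these calls held with every array left out. Among solute carriers and pump subunits 11.1% were higher and 4.76% lower, against 3.52% and 3.19% of all genes. Of 63 solute carriers and pump subunits 7 were higher and 3 lower, and 1, 1, 1 and 4 were higher with the arrays left out in turn.

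Of 384 adhesion genes in 9 lists 27 were higher (7.03%, against 3.52% of all genes) and 43 lower (11.2%, against 3.19%), with a median of -0.03. Without the genes on the lists for microglia, vessel cells, cell division and immediate-early genes, 27 were higher and 31 lower of 353. Without Hb9 replicate 1, Hb9 replicate 2, Thy1 replicate 1 or Thy1 replicate 2 the higher genes numbered 9, 10, 11 and 27 and the lower genes 19, 28, 26 and 34.

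Classical cadherins, the calcium-dependent homophilic adhesion proteins, gave 4 higher (14.3%) and 3 lower (10.7%) of 28, against 3.52% and 3.19% of all genes. Cdh6, a type II cadherin known from direction-selective cells, read 9.93 and 10.08 against 8.35 and 8.32 (1.67 ± 0.15), with 1 of 2 probe sets called. Cdh11 read 7.81 and 7.79 against 8.98 and 9.12 (-1.25 ± 0.18), with both probe sets called, and Cdh8 read 5.11 and 5.29 against 6.10 and 6.42 (-1.06 ± 0.15), with 1 of 3. Neither direction was thus shared by the family. Fat1, a giant atypical cadherin, read 8.10 and 8.64 against 9.79 and 9.63 (-1.34 ± 0.19). The calls of these 4 genes held with every array left out, but that of Cdh8 was lost with the mean of its probe sets (adjusted p = 0.22 in limma). Protocadherins and atypical cadherins gave 6 higher (16.2%) and 3 lower (8.11%) of 37, against 3.52% and 3.19% of all genes. Among them Pcdhb9 read 9.68 and 9.79 against 8.76 and 8.88 (0.92 ± 0.14), a call lost without Hb9 replicate 2. With the arrays left out in turn that list had 2, 0, 2 and 4 higher genes.

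Of 61 immunoglobulin superfamily genes 8 were higher (13.1%, against 3.52% of all genes) and 4 lower (6.56%, against 3.19%), with a median of 0.15. Cntn5, a contactin of direction-selective cells, read 7.34 and 7.25 against 5.64 and 6.14 (1.40 ± 0.18) and was the rise in this list that held with every array left out. Cntn4 read 8.30 and 8.29 against 7.23 and 7.19 (1.08 ± 0.18), and was lost without Hb9 replicate 1 (adjusted p = 0.0652 in limma) and Hb9 replicate 2 (0.0520), and with probe sets averaged (0.0729). Dscaml1, a homophilic receptor used in self-avoidance, read 7.09 and 7.52 against 5.87 and 6.48 (1.13 ± 0.23), with 1 of 5 probe sets called, and was lost without Hb9 replicate 2 (0.115) and Thy1 replicate 1 (0.146), and with probe sets averaged (also 0.146). With the arrays left out in turn the list had 2, 2, 3 and 7 higher genes. Among 43 leucine-rich repeat genes 1 was higher and 1 lower, 2.33% each, against 3.52% and 3.19% of all genes. The synaptic organisers Lrrtm1 and Lrrtm2 were these calls, in opposite directions. Lrrtm2 read 6.06 and 6.90 against 8.48 and 8.43 (-1.98 ± 0.26) and held with every array left out, whereas the rise of Lrrtm1 by 1.03 ± 0.21 was lost without Hb9 replicate 1 (0.0984), Hb9 replicate 2 (0.0888) and Thy1 replicate 1 (0.151), and with probe sets averaged (0.265).

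Integrins and their focal adhesion partners had 0 higher and 9 lower of 42 genes, with a median of -0.18. The share of lower genes was 21.4%, against 3.19% of all genes. Itga1, a collagen receptor subunit on the vessel list, read 5.83 and 5.82 against 7.22 and 7.84 (-1.70 ± 0.21), and Tns3, a tensin that links integrins to actin, read 7.05 and 6.59 against 8.65 and 8.42 (-1.71 ± 0.18). Cd9, a tetraspanin that associates with integrins, read 5.91 and 6.42 against 9.23 and 8.09 (-2.49 ± 0.42). The call of Cd9 was lost without Hb9 replicate 1, without Thy1 replicate 1 and under robust moderation (adjusted p = 0.0727 in limma). Of the 9 genes, 7 are outside the other-cell lists, and 3, 5, 4 and 7 were called with the arrays left out in turn. Secreted matrix proteins and proteoglycans had 2 higher (2.99%) and 14 lower (20.9%) of 67, and 6 of the lower genes are outside the other-cell lists. Postn, a matrix protein that binds integrins, read 6.14 and 5.92 against 8.18 and 8.44 (-2.28 ± 0.21). Gpc6, a glypican, rose, at 8.65 and 8.78 against 7.31 and 7.19 (1.46 ± 0.20), with 3 of 5 probe sets called. Both held with every array left out. Vcan, a large proteoglycan, was the other rise (1.34 ± 0.32), in 1 of 8 probe sets. Its call was lost without Hb9 replicate 1, Hb9 replicate 2 or Thy1 replicate 1. It was also lost with probe sets averaged (adjusted p = 0.658 in limma), under robust moderation (0.0793) and under quantile normalisation (0.051).

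Neuronal collagens and metalloproteinases were split, 4 higher and 4 lower of 44, 9.09% each, against 3.52% and 3.19% of all genes. Col25a1, a transmembrane collagen, read 10.76 and 11.17 against 9.51 and 8.97 (1.72 ± 0.28), with 1 of 2 probe sets called. Mmp16, a membrane-bound metalloproteinase, read 5.77 and 6.23 against 7.30 and 7.41 (-1.36 ± 0.18), and Plat, the tissue plasminogen activator, read 6.28 and 6.24 against 7.21 and 7.42 (-1.05 ± 0.15). All 3 held with every array left out, and the last 2 did not pass with probe sets averaged (adjusted p = 0.10 and 0.0554 in limma).

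Transcription factors beyond the Zic genes were called in both directions. Eomes, a T-box factor that marks intrinsically photosensitive and some other RGCs, read 6.15 and 6.31 in Hb9 against 8.48 and 8.69 in Thy1 (-2.35 ± 0.16, adjusted p = 0.000198 in limma), with both probe sets called. Tbx20, another T-box factor, read 4.74 and 4.97 in Hb9, below the reference, against 7.10 and 6.45, so it was at least 2.74-fold lower. Meis1 and Barhl2, homeobox factors of the retina, rose by 1.08 ± 0.15 and 0.98 ± 0.15. All 4 calls held with every array left out, and that of Meis1 was lost with the mean of its 3 probe sets (0.0562). Of 67 homeobox and POU genes 5 were higher (7.46%, against 3.52% of all genes) and 4 lower (5.97%, against 3.19%). The cytoskeletal gene Map1b, a microtubule protein of growing axons, read 8.93 and 9.16 against 10.21 and 10.50 (-1.31 ± 0.15) and held as well.

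**Figure D4:**
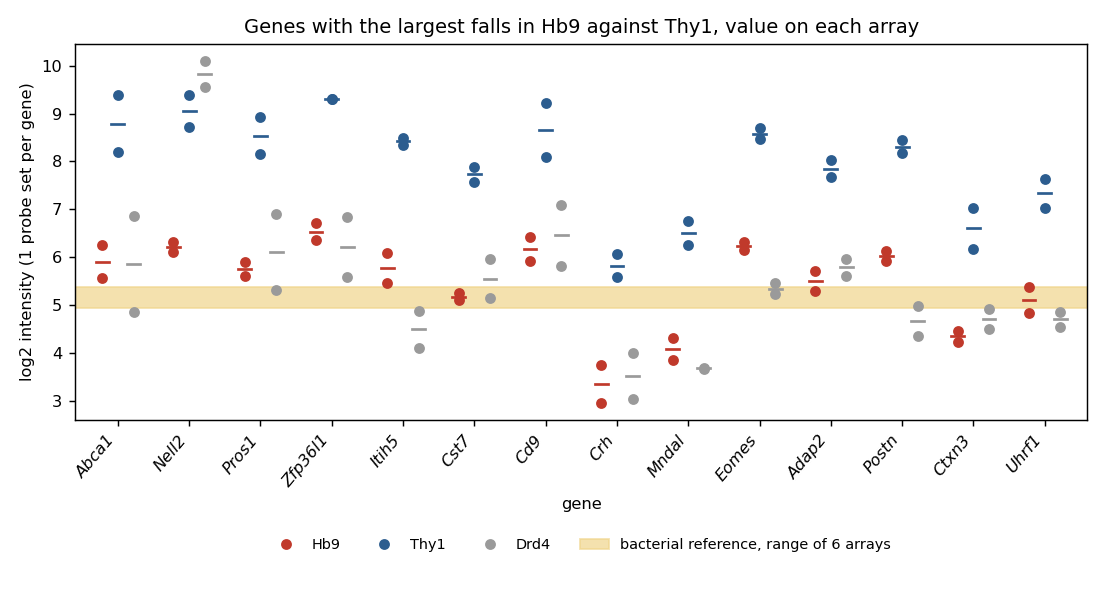
Log2 intensity on each array (points) with the group mean (short lines) for the 14 genes with the largest falls outside the lists for microglia, vessel cells, cell division and immediate-early genes, ordered by the fall; Hb9 in red, Thy1 in blue and Drd4 in grey, 2 arrays each. The band spans the bacterial reference over the 6 arrays. The 14 genes were chosen so that both Hb9 points lie below both Thy1 points. In Crh, Mndal and Ctxn3 the Hb9 points lie below the band.

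Several of the largest falls outside the other-cell lists are known from cells other than neurons, so those lists do not hold every such gene. Nell2, Crh and Eomes, given above, belong to the same largest falls. The cell source of the falls was not tested. Pros1, the protein S gene, read 5.61 and 5.90 in Hb9 against 8.92 and 8.15 in Thy1 (-2.79 ± 0.43), Zfp36l1, an RNA decay factor, 6.36 and 6.71 against 9.30 on both (-2.77 ± 0.33), and Cst7, a cystatin expressed by microglia, 5.25 and 5.11 against 7.89 and 7.58, at least 5.35-fold lower. Itih5, a hyaluronan-binding matrix protein, read 5.47 and 6.10 against 8.49 and 8.34 (-2.63 ± 0.26), and Myh9, the non-muscle myosin heavy chain, 9.48 and 9.67 against 11.85 and 11.66 (-2.19 ± 0.28). In the Drd4 line these 5 genes also read below the Thy1 arrays, with the highest Drd4 value at 6.90 for Pros1, 6.85 for Zfp36l1, 5.96 for Cst7, 4.89 for Itih5 and 9.97 for Myh9. All 5 held with every array left out, and that of Pros1 was lost under robust moderation (adjusted p = 0.0594 in limma).

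The lists for other cells moved with the comparison. Of 141 microglia and macrophage genes, 62 were lower (44.0%, against 3.19% of all genes) and 1 higher (0.71%, against 3.52%). Their median was -0.57, and their summed intensity was 10830 and 12400 in Hb9 and 38150 and 24580 in Thy1. Without Hb9 replicate 1, Hb9 replicate 2, Thy1 replicate 1 or Thy1 replicate 2 the lower genes numbered 25, 46, 24 and 67. Among defining markers, P2ry12 and Aif1 were below the bacterial reference on both Hb9 arrays and above it on both Thy1 arrays, while Csf1r read 8.51 and 8.81 in Hb9. Of 190 vessel, pericyte and fibroblast genes, 65 were lower (34.2%) and 3 higher (1.58%), with a median of -0.27. Their sums were 20580 and 20210 in Hb9 against 43050 and 43990 in Thy1. The endothelial markers Pecam1 and Cldn5 were below the reference on all 4 arrays. Cell division genes had 12 lower of 53, with 4, 3, 12 and 5 when the arrays were left out, and sums of 4021 and 3906 against 4888 and 6452. Immediate-early genes had 12 lower of 55, with 0, 2, 1 and 14, and sums of 13460 and 14980 against 21410 and 17640. Muller glia genes had 4 lower of 25, with sums of 3418 and 3303 against 4633 and 4890, and horizontal cell genes 1 lower of 9. Astrocyte, amacrine, bipolar and photoreceptor lists, of 14, 21, 15 and 26 genes, had 0 lower genes, and 2 genes called higher, Pax6 and Grik1. In the amacrine and bipolar lists the shares of higher genes were 4.76% and 6.67%, against 3.52% of all genes. The bipolar sums were 4807 and 5504 in Hb9, 4358 and 4521 in Thy1, and 2808 and 2557 in Drd4. The amacrine sums were 3332 and 3129 in Hb9 and 2635 and 3122 in Thy1. Astrocyte and photoreceptor sums overlapped between Hb9 and Thy1. The part of bipolar cells in the rise of Grik1 was not tested. In all, 149 of the 433 genes of the microglia, vessel, cell division and immediate-early lists were lower and 3 higher; without them 637 genes were higher and 431 lower. In bulk samples, fewer cells of a type and less RNA per cell cannot be told apart. What these lists contribute to the lower genes was not tested.

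**Figure D5:**
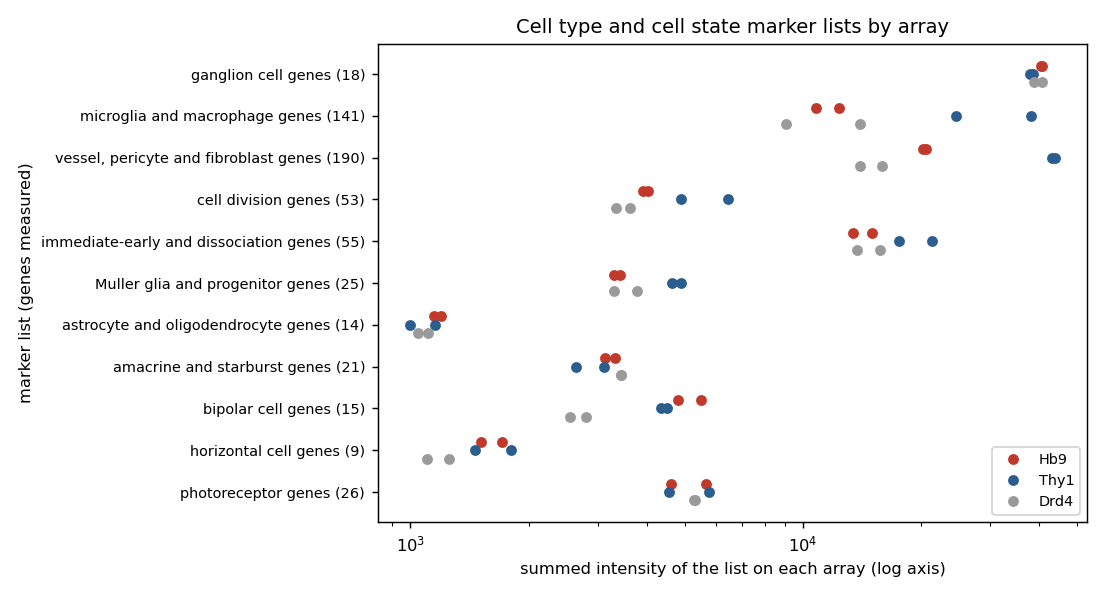
Summed intensity of each marker list on each array (log axis), with Hb9 in red, Thy1 in blue and Drd4 in grey, 2 arrays each, and the genes measured in brackets. The microglia and vessel sums of both Hb9 arrays lie below those of both Thy1 arrays, whereas the sums of photoreceptor and horizontal cell genes overlap. The bipolar and amacrine sums of both Hb9 arrays lie above those of both Thy1 arrays.

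Genes above the bacterial control signal were counted separately, since a difference is measured on both sides there. Of the 18193 genes, 12011 were above the reference on all 4 arrays, and 945 of these were called, 557 higher and 388 lower. Without Hb9 replicate 1, Hb9 replicate 2, Thy1 replicate 1 or Thy1 replicate 2 this count was 210, 300, 253 and 1024. Genes seen above the reference on both arrays of 1 group and on neither of the other were more numerous in Thy1: 39 were above on both Hb9 arrays and neither Thy1 array, of which 27 were called higher, and 580 the reverse, of which 109 were called lower and 34 of those are on the microglia, vessel, cell division or immediate-early lists. The reference itself was higher on the Hb9 arrays, at 5.38 and 5.25, than on the Thy1 arrays, at 5.16 and 5.12, and its part in this imbalance was not tested. Myh1, Fibcd1, Zic5, Cabp1 and Kcnt2 are among the 27 genes, and Crh, Mndal, Ctxn3, Tbx20, Sema5a and Cst7 among the 109. A further 4023 genes were at or below the reference on all 4 arrays; 39 of them were called, and their directions have no measured level behind them.

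The Drd4 line, another direction-selective population, was set beside these genes; both comparisons share the Hb9 arrays. Against Drd4, 6.12% of all genes were called in either direction. Cartpt read 9.90 and 8.87 in Drd4, and Hb9 minus Drd4 was -0.05 ± 0.27 (adjusted p = 0.942 in limma), which does not show that the lines were equal. Npy read 5.35 and 5.43, Zic2 4.75 and 4.43, and Cdh1 3.97 and 4.33 in Drd4, below both Hb9 arrays in each case. Their differences were 3.32, 3.67 and 3.63 (limma adjusted p = 3.5e-05, 9.9e-06 and 9.9e-06). Cbln4 at 5.41 and 6.77 and Col25a1 at 7.36 and 6.51 were lower in Drd4 too, by 3.44 and 4.03. Nell2 was brightest in Drd4, at 9.56 and 10.10, with a difference of -3.61. Trhr, the thyrotropin-releasing hormone receptor gene, read 10.02 and 9.61 in Drd4 and was at or below the reference on both Hb9 arrays. Sema3e, at 10.35 and 10.21 in Drd4, and Gabra5, at 7.16 and 7.46, differed from Hb9 by 0.14 and 0.40 and did not pass (limma adjusted p = 0.652 and 0.198). For Ano1, Hadh, Dhrs3, Cd9 and Barhl2, Hb9 minus Drd4 was 0.13, 0.14, -0.21, -0.30 and 0.21. None of these passed (limma adjusted p = 0.800, 0.825, 0.569, 0.766 and 0.496), so their differences from Thy1 are not shown to be particular to Hb9. The same holds for Crh (-0.17), Abca1 (0.05), Hey2 (-0.09), Chrna3 (0.59), Chrnb4 (0.59) and Grik1 (0.72). Their limma adjusted p was 0.833, 0.977, 0.815, 0.0891, 0.0738 and 0.0525. These genes are examples, and other named genes, such as Apoe (0.45, limma adjusted p = 0.611), did not pass either. Cdh11 did pass, at -2.57 (3.5e-05 in limma).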

How the data were processed

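The authors deposited linear probe set intensities for 6 Affymetrix arrays. Details of correction, summarisation and scaling were not given in the sources used here. The platform annotation names 1 gene for 34945 of the 45101 probe sets and several for 932; 9160 are unnamed and 64 are controls. Intensities were taken to log2, and each gene is represented by its probe set of highest mean log2 on the 6 arrays (18193 genes). Of the called genes named by the rule below, 69 have 1 probe set and 167 have several; of the latter, 18 had all probe sets called the same way and 4 had a probe set called the opposite way.

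A mean was fitted to each of 3 groups with limma 3.58.1 in R 4.3.3, with an intensity trend in the moderation, 3 residual degrees of freedom and a prior of 6.98. Tests were two-sided, with Benjamini-Hochberg adjustment over all genes at a threshold of 0.05. The median standard error was 0.15, and the number of arrays limits the precision. With 2 arrays against 2, exact permutation cannot go below p = 0.333 and was not used. The procedure was tested on simulated data. A fold is given as "at least" where the dimmer group was at or below the bacterial reference on both arrays, from the mean of the brighter group against the higher of the reference and the dim value on each array.

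The rule for named genes took the 6 markers, Mnx1 and Thy1, the 14 largest rises and 14 largest falls without overlap of the groups and with the brighter group above the reference, outside the microglia, vessel, cell division and immediate-early lists, and up to 4 called genes a direction in each list; other names spell out small counts or are defining markers. The markers and the lists were chosen with earlier results of these data known, so their counts are descriptions and no list was tested as a set. The 54 lists comprise 20 for signalling, 10 for metabolism, 9 for adhesion, 4 for other gene families and 11 for cell types and states. One signalling list is not reported here singly, and its genes stay in the class counts. Alternatives were quantile normalisation, median centring, averaged probe sets, removal of dim genes, robust moderation, moderation with no trend, array weights, the replicate number as a block, an offset of 16, only the compared arrays, and each array left out. Counts without the other-cell lists were added after seeing the data. RefSeq promoters and the RefSeq gene table are of GRCm38.p6, and 34741 probe sets matched the gene table.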

Additional observations from a re-analysis of the deposited data

How the results depend on the processing

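With 1 array left out, the genes called higher ranged from 96 to 888 (640 with all arrays), those called lower from 219 to 745 and the called genes above the bacterial reference on all 4 Hb9 and Thy1 arrays from 210 to 1264; a group left with 1 array is assumed to vary like the others, and fewer samples enter each fit. Under the other 10 alternatives and without the other-cell lists these 3 counts stayed within 1.5 times, for example 457 and 579 under quantile normalisation and 854 and 536 under median centring. The replicate numbers are not stated to pair the arrays, and deviations of same-numbered Hb9 and Thy1 arrays correlated at -0.19; with the replicate number as a block 580 were higher and 576 lower. Of 236 called genes named by the rule, 71 passed in every alternative and 81 in all 4 fits without an Hb9 or Thy1 array; 93 were lost when probe sets were averaged, 40 under quantile normalisation, 21 with the block and 10 under robust moderation. With probe sets averaged, Camk4, Pfkp and Plcb1 turned negative (-0.0856, -0.476 and -0.0939); each has 1 probe set called lower. Calls near the bacterial reference are limited by signal over background.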
